A study of Mus musculus with 12 samples.

Results

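The MHC class II presentation genes are described here in mouse bone marrow-derived macrophages. The 8 members are H2-Aa, H2-Ab1, H2-Eb1, Cd74, H2-DMa, H2-DMb1, H2-DMb2 and Ciita, chosen by name and found among the 47937 genes of the count table through their Ensembl identifiers. Of these, 7 had enough reads to be tested, among 11760 genes tested in all, and H2-DMb2 did not.

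C57BL/6 bone marrow was cultured with CSF-1 for 7 days to give macrophages, and RNA was sequenced in 4 groups of 3 libraries. One pair of groups was left resting (M0) and the other was activated over 18 h by IFNγ at 50 ng/ml plus LPS at 20 ng/ml. Within each pair, 1 group also received T863 at 50 μM, an inhibitor of the triglyceride-synthesizing enzyme DGAT1 (DGAT1i). For 2 resting libraries with DGAT1i the description gives another compound number, which was read as T863. Every library was of the same wild-type strain, the inhibitor is the only means by which DGAT1 was targeted, and nothing in the labels ties a library to 1 mouse, so that p-values measure the spread between these libraries.

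MHC class II molecules are pairs of an α chain and a β chain that show peptides from ingested material to CD4+ T cells. They are built in the endoplasmic reticulum with the invariant chain as a placeholder, and in late endosomes proteases trim that chain down to a fragment that H2-DM removes so that peptide can bind. CIITA, a coactivator that binds no DNA itself, is the main switch of these genes, and in macrophages it is known to be switched on by IFNγ.

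The members' promoters are shown first, because the X and Y boxes in them are the sequences through which CIITA is known to be recruited. RefSeq's table for GRCm38.p6 held windows of 300 bases (250 before to 50 after the transcription start) for 5 of the 8 members, H2-Aa, H2-Eb1, H2-DMa, H2-DMb1 and H2-DMb2. Stretches upstream of the start are given 5′ to 3′ on the strand of the gene, and capitals mark GATTGG, the core of the Y box, GCAAC, a piece of the X box, and GATGATGCT, a run found in several members after the windows had been compared. The stretch of H2-DMb1 is kept short and begins inside that run, whose remaining letters are left in lower case.
H2-Aa, chr17:34287844-34287973, minus strand: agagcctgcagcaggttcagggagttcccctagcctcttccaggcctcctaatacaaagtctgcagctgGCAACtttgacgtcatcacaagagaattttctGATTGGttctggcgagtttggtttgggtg
H2-Eb1, chr17:34305717-34305846, plus strand: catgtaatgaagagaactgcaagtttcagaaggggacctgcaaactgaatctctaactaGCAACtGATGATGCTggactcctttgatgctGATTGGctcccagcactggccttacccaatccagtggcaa
H2-DMb2, chr17:34145099-34145228, plus strand: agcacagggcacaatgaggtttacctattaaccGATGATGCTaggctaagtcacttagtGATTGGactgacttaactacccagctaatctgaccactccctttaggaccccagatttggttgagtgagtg
H2-DMb1, chr17:34153105-34153134, plus strand: tgatgctaggctgattcactcagtGATTGG

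GATTGG was found in a window of all 5 members, 49 bases before the start in H2-Aa, 60 in H2-Eb1, 62 in H2-DMb1 and 91 in H2-DMb2, and 199 bases before the later of the 2 starts of H2-DMa. On either strand it is present in 16.1% of all 32851 windows. GCAAC is present in 35.2% of windows, and a GCAAC that begins 20 to 40 bases before a GATTGG on the same strand in 0.365%. Among the members this spacing was found in H2-Aa, at 32 bases, and in H2-Eb1, at 31 bases. It was also found in H2-Oa at 32, H2-Ob at 29 and H2-Eb2 at 31 bases, the other class II genes with a window. GATGATGCT is present in 0.274% of windows, and in H2-Eb1, H2-DMb1 and H2-DMb2 among the members. It begins 85, 88 and 117 bases before the start in these, in that order, where GATTGG begins at 60, 62 and 91. In H2-Eb1 it follows GCAAC, which begins at 91. Only exact letters were sought, so that an X box with other letters would be missed. The gamma-activated site TTCNNNGAA is present in 8.3% of windows and, among the members, in H2-DMb2, and the E box CACGTG is present in 7.15% and in none of the members' windows. These are matches of letters, and binding was not measured.

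**Figure D1:**
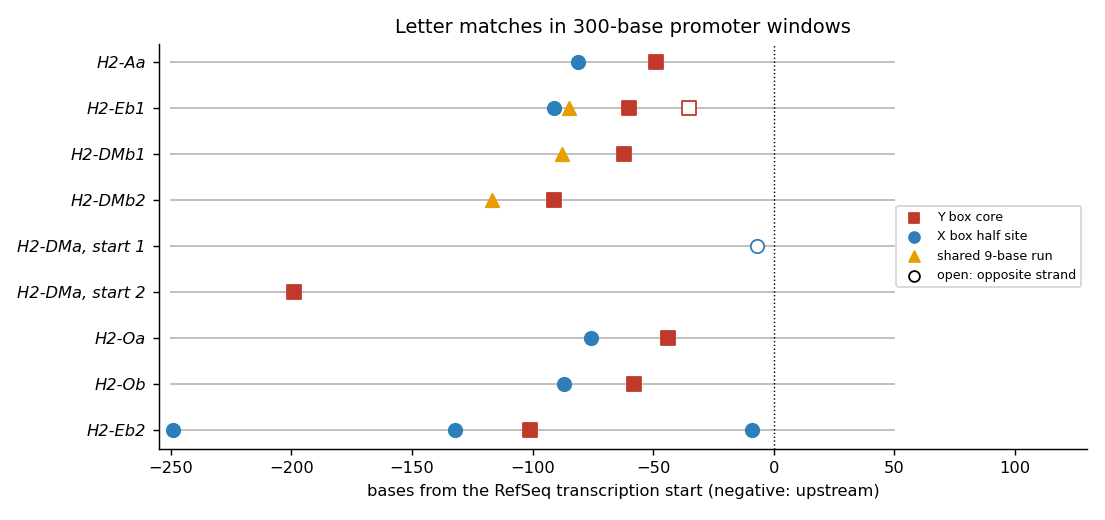
Position of letter matches (x axis, bases from the RefSeq start, upstream negative) in the promoter windows of 5 members and of H2-Oa, H2-Ob and H2-Eb2 (rows, open symbols on the other strand). In H2-Aa, H2-Eb1, H2-Oa, H2-Ob and H2-Eb2 the X box piece (circle) lies 29 to 32 bases before a Y box core (square). The shared run (triangle) also lies before a Y box core, at -85 in H2-Eb1, just after the circle, at -88 in H2-DMb1 and at -117 in H2-DMb2.

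In GENCODE release M21 on GRCm38, the stretch of H2-Aa lies outside any gene and that of H2-Eb1 in an intron of Gm20513 on the other strand, of whose exon it takes 4 bases. The stretch of H2-DMb2 lies in an intron of a longer H2-DMb2 transcript, and that of H2-DMb1 in an annotated exon and untranslated region of H2-DMb1. On chromosome 17 sit 6 members, from H2-DMa (34119541 to 34139101, plus strand) through H2-DMb2 (34143307 to 34151555), H2-DMb1 (34153072 to 34160230), H2-Ab1 (34257689 to 34269419) and H2-Aa (34282744 to 34287823, minus strand) to H2-Eb1 (34305867 to 34316674). Cd74 is on chromosome 18 (60803848 to 60812652) and Ciita on chromosome 16 (10480059 to 10528418).

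The deposited values are raw counts per gene, from 4996014 to 6621671 a library, and levels are given as CPM after TMM scaling, 1 CPM being worth 4.28 to 7.58 reads. A gene was called changed where the adjusted p (Benjamini-Hochberg over the 11760 genes) of edgeR's quasi-likelihood test lay under 0.05. Libraries of a group correlated at 0.988 to 0.992 (Pearson, log2 CPM) and differed by more than counting noise. The macrophage markers Adgre1, Csf1r, Cd68, Fcgr1, Mertk, Itgam and Lyz2 had reads in every group. In bulk RNA, fewer cells of a type and less RNA per cell cannot be told apart.

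Stimulation with IFNγ + LPS raised all 7 members tested, from 4.54-fold for H2-DMb1 to 59.8-fold for H2-Eb1 among the members with reads in every library, and Ciita rose from a few reads to at least 466 a library. Of all genes tested, 37.1% were called higher and 36.2% lower, and the libraries of 38.2% were apart and higher. With library size alone in place of TMM scaling the median over all genes moved by -0.46 on the log2 scale and the calls to 2340 higher and 7002 lower, and all 7 members were still called higher. The median log2 fold change was 5.37 over the 7 members and 0.01 over all genes tested. Ciita passed the filter on low counts through the stimulated groups alone, as 0 of its 6 resting libraries reached the limit, so that it had to differ. At least 5 of the 6 resting libraries reached the limit for the other 6 members.

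H2-Aa encodes the α chain and H2-Ab1 the β chain of I-A, the class II molecule of this strain. H2-Aa was at 3.49, 5.06 and 5.85 CPM in the M0 libraries and at 190.3, 189.6 and 221.2 CPM in IFNγ + LPS. H2-Ab1 was at 4.79, 5.33 and 3.06 CPM in M0 and at 252.9, 234.0 and 261.9 CPM in IFNγ + LPS. Every stimulated library lay far above every resting one for both genes, and in M0 each rested on 22 to 42 reads a library. H2-Aa rose 41.4-fold (log2 fold change 5.37, SE 0.11, adjusted p = 2.84e-41) and H2-Ab1 56.4-fold (5.82, SE 0.13, adjusted p = 7.92e-22).

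H2-Eb1 encodes the β chain of I-E, whose α chain C57BL/6 mice are known not to make. It was at 1.45, 2.66 and 2.65 CPM in M0 and at 142.8, 125.7 and 143.3 CPM in IFNγ + LPS. H2-Eb1 rose 59.8-fold (5.90, SE 0.13, adjusted p = 2.34e-38). The α-chain gene, annotated as H2-Ea-ps, had 0 reads in all 12 libraries, so that H2-Eb1 was expressed without its partner being detected.

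Cd74 encodes the invariant chain and had the most reads of the members in every library. It was at 33.0, 34.6 and 31.5 CPM in M0 and at 899.9, 845.9 and 869.2 CPM in IFNγ + LPS. The groups were tight and far apart, and Cd74 rose 26.4-fold (4.72, SE 0.11, adjusted p = 8.26e-16).

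H2-DMa and H2-DMb1 encode chains of H2-DM, the peptide editor. H2-DMa was at 9.88, 8.12 and 9.61 CPM in M0 and at 110.8, 97.2 and 120.8 CPM in IFNγ + LPS, 11.9-fold higher (3.57, SE 0.11, adjusted p = 1.67e-34). H2-DMb1 was at 15.0, 19.3 and 18.1 CPM in M0 and at 81.5, 70.2 and 87.1 CPM in IFNγ + LPS, 4.54-fold higher (2.18, SE 0.10, adjusted p = 8.37e-26). Both groups were apart for both genes, and the intervals of these 2 increases (log2 3.37 to 3.78 and 1.99 to 2.38, 1.96 SE) lay below those of I-A, H2-Eb1 and Cd74.

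H2-DMb2 encodes the other H2-DM β chain and was barely detected, at 0.581, 0.400 and 0.278 CPM in M0 and at 2.53, 1.98 and 1.50 CPM in IFNγ + LPS. Its groups did not overlap, and its 31 reads in IFNγ + LPS against 9 in M0 make a ratio of 4.75 at equal depth (95% counting interval 2.21 to 11.3, counting error only). Of its longest coding transcript, 70.7% is covered by H2-DMb1 at 95% identity or more, and it is not known here how the counting split reads between these copies, so both levels are uncertain.

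Ciita had 3, 1 and 2 reads in the M0 libraries and 466, 468 and 520 in IFNγ + LPS, or 98.1, 84.2 and 97.4 CPM. With 6 reads in M0 in all, its ratio of 334 has a 95% counting interval of 153 to 912. Ciita shares 329 exon bases with Dexi on the other strand, which had 493 reads in all 12 libraries together.

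**Figure D2:**
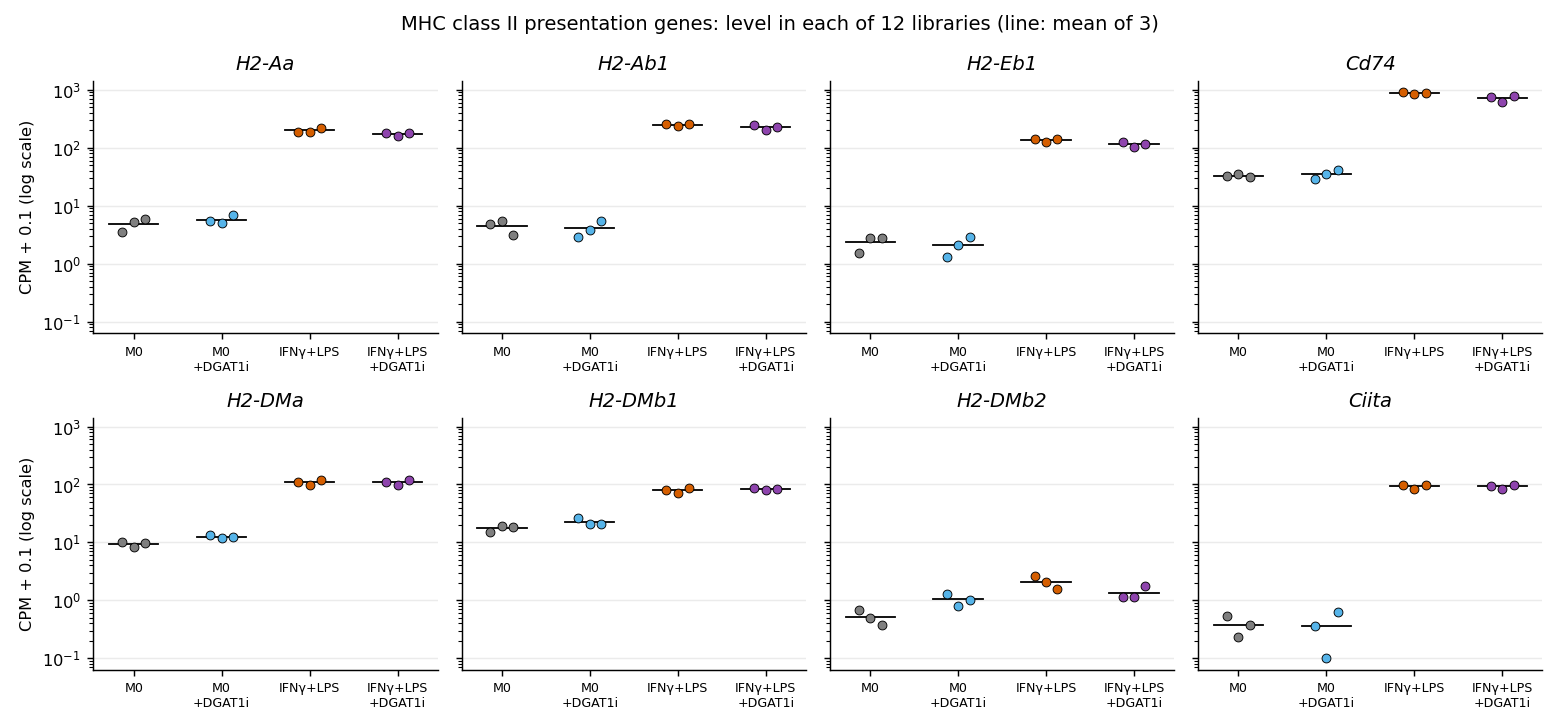
Level of each member in the 12 libraries (y axis, CPM + 0.1 on a log scale; points are libraries, lines are means of 3). For every member but H2-DMb2 the 6 stimulated libraries lie above the 6 resting ones, and the effect of DGAT1i is small beside that of stimulation.

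With DGAT1i in both arms, in libraries other than those above, all 7 members were again higher in IFNγ + LPS than in M0, where 35.3% of all genes tested were called higher and 36.1% were apart and higher. With library size alone 2333 genes were called higher and 6799 lower. The median log2 fold change was 4.91 over the 7 members and -0.01 over all genes. H2-Aa rose 30.1-fold (log2 4.91, SE 0.11), H2-Ab1 56.8-fold (5.83, SE 0.13), H2-Eb1 56.9-fold (5.83, SE 0.14) and Cd74 20.2-fold (4.34, SE 0.11). H2-DMa rose 8.75-fold (3.13, SE 0.10) and H2-DMb1 3.77-fold (1.91, SE 0.10), which left the order from H2-DMb1 up to Cd74 as it was without the inhibitor. Adjusted p of these members ranged up to 2.64e-15. Ciita had 2, 0 and 4 reads in the resting libraries and 462, 406 and 415 in the stimulated ones, a ratio of 340 (interval 156 to 928). H2-DMb2 had 21 and 17 reads, a ratio of 1.29 (interval 0.637 to 2.56).

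DGAT1i lowered 3 of the 7 members in IFNγ + LPS, H2-Aa, H2-Eb1 and Cd74, by 14.3% to 17.9%, while Ciita, H2-DMa and H2-DMb1 differed by -1.04% to 5.05% and were not called. Of all genes tested, 16.3% were called lower, 13.5% higher and 29.8% either way in this comparison, and the libraries of 21.6% were apart and lower. The median log2 fold change was -0.14 over the 7 members and -0.01 over all genes.

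With DGAT1i, H2-Aa stood at 178.7, 159.4 and 177.5 CPM in IFNγ + LPS, each below the lowest library without it (189.6 CPM). H2-Aa fell by 0.22 on the log2 scale (SE 0.07, adjusted p = 0.00787). H2-Eb1 stood at 124.1, 103.9 and 114.2 CPM, just below the lowest library without DGAT1i (125.7 CPM). H2-Eb1 fell by 0.27 on the log2 scale (SE 0.07, adjusted p = 0.00503).

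Cd74 stood at 748.7, 617.5 and 780.1 CPM with DGAT1i, where the lowest library without it was at 845.9 CPM. Cd74 fell by 0.29 on the log2 scale (SE 0.08, adjusted p = 0.0191). For the I-A β chain H2-Ab1 the libraries with DGAT1i, at 249.1, 199.8 and 231.6 CPM, overlapped those without, and its log2 difference of -0.14 was not called (SE 0.08, interval -0.29 to 0.02, adjusted p = 0.203).

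The 3 decreases rested on few libraries. Without replicate 3 of IFNγ + LPS the call remained for H2-Eb1 alone, and with replicate 2 of the stimulated DGAT1i libraries left out it remained for Cd74 alone. The call of Cd74 was also lost without replicate 1 of IFNγ + LPS (adjusted p = 0.0728), and that of H2-Ab1 was gained without replicate 1 of IFNγ + LPS with DGAT1i (adjusted p = 0.0307) or without a filter on low counts (0.0318). Each decrease kept its sign, and the adjusted p with single libraries left out ranged up to 0.125 for H2-Aa and 0.0525 for H2-Eb1.

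Ciita was at 95.1, 84.7 and 96.9 CPM with DGAT1i in IFNγ + LPS, the same range as without it. Its 1283 reads against 1454 make a ratio of 0.991 at equal depth (95% counting interval 0.918 to 1.07), and its log2 difference was -0.02 (interval -0.17 to 0.14, adjusted p = 0.918). H2-DMa was at 111.4, 96.6 and 121.2 CPM and its log2 difference was 0.00 (interval -0.15 to 0.15). H2-DMb1 was at 88.3, 79.1 and 83.1 CPM, a log2 difference of 0.07 (interval -0.09 to 0.23, adjusted p = 0.574). A decrease the size of that of Cd74 lay outside all 3 intervals. H2-DMb2 had 17 reads with DGAT1i and 31 without, a ratio of 0.616 whose counting interval (0.320 to 1.15) includes 1.

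**Figure D3:**
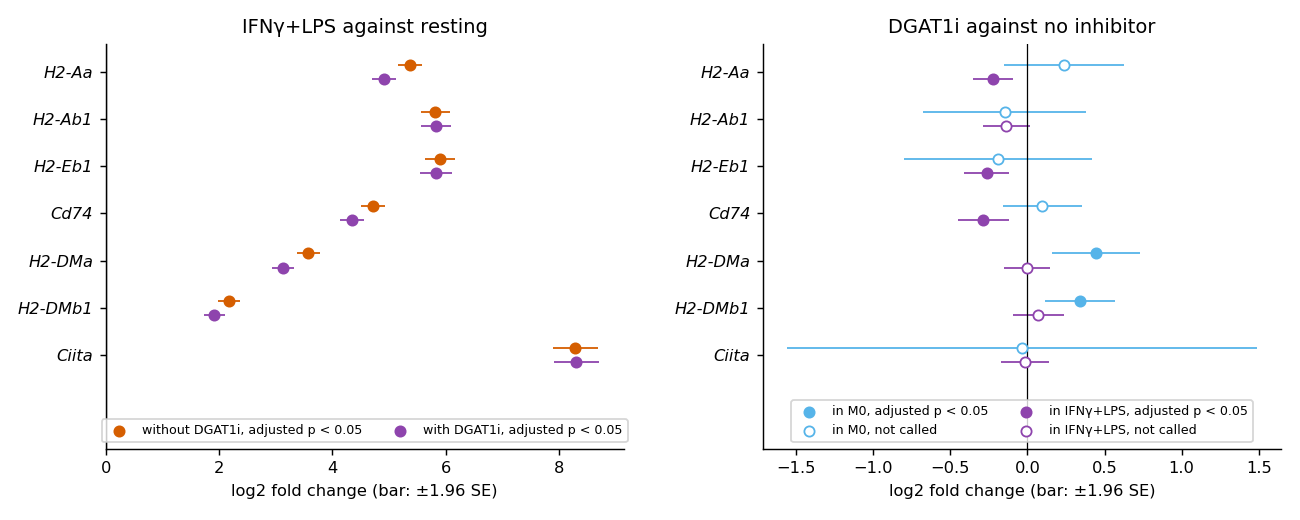
Log2 fold change of the 7 members tested, with bars of 1.96 SE, for IFNγ + LPS against M0 (left) and for DGAT1i against no inhibitor (right), where filled points passed the test. With DGAT1i, H2-Aa, H2-Eb1 and Cd74 are lower in IFNγ + LPS and H2-DMa and H2-DMb1 are higher in M0.

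In M0, DGAT1i raised the H2-DM genes H2-DMa and H2-DMb1, and the other 5 members tested were not called. Of all genes tested, 11.0% were called higher, 13.4% lower and 24.4% either way, and the libraries of 17.9% were apart and higher. With library size alone 885 genes were called higher and 2092 lower, against 1298 and 1571 with TMM scaling. The median log2 fold change was 0.10 over the 7 members and 0.00 over all genes. H2-DMa was at 13.2, 11.8 and 12.5 CPM with DGAT1i, above all 3 libraries without it, and was 1.36-fold higher (log2 0.44, SE 0.15, adjusted p = 0.0201). H2-DMb1 was at 25.8, 20.3 and 20.3 CPM, where the highest library without DGAT1i was at 19.3 CPM, and was 1.27-fold higher (log2 0.34, SE 0.12, adjusted p = 0.0260).

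Both calls depended on the settings and on single libraries. With library size alone in place of TMM scaling neither was called (adjusted p = 0.0565 for H2-DMa and 0.0774 for H2-DMb1), and DESeq2 called neither (0.0525 and 0.0939). Neither was called without replicate 1 of M0 with DGAT1i, H2-DMa was not called without replicate 2 of M0, and H2-DMb1 was not called without replicate 1 of M0.

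H2-DMa shares 360 exon bases, 10.4% of its merged exons, with Brd2 on the other strand, which was at 194.9 CPM in M0 and 222.8 CPM in M0 with DGAT1i and was called higher (log2 0.19, SE 0.05, adjusted p = 0.00426). Brd2 was also called higher with IFNγ + LPS (log2 2.45, SE 0.05) and lower with DGAT1i in IFNγ + LPS, where it differed by -0.27 (SE 0.05, adjusted p = 1.29e-05) and H2-DMa by 0.00. No source used here says whether the counting used strand, and the part of Brd2 in the level of H2-DMa was not tested.

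The I-A and I-E genes and Cd74 overlapped between M0 with and without DGAT1i. H2-Aa was at 5.31, 4.97 and 6.73 CPM with the inhibitor, H2-Ab1 at 2.79, 3.69 and 5.41 CPM and H2-Eb1 at 1.20, 1.99 and 2.77 CPM. These libraries held 9 to 51 reads per gene, and the intervals of the log2 differences ran from -0.15 to 0.62, from -0.68 to 0.38 and from -0.80 to 0.42, in that order. Those of H2-Ab1 and H2-Eb1 include a decrease of the size seen in IFNγ + LPS, and that of H2-Aa does not. Cd74 was at 29.0, 35.6 and 41.4 CPM with DGAT1i, a log2 difference of 0.10 (interval -0.16 to 0.35, adjusted p = 0.662). Ciita had 6 reads in either group, and H2-DMb2 had 21 with DGAT1i against 9, a ratio of 2.27 (interval 0.998 to 5.64).

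Whether the response to DGAT1i differed between stimulated and resting macrophages was tested as an interaction. None of the 7 members was called by edgeR, against 18.5% of all genes tested, with 9.80% of all genes called lower. At an unadjusted p under 0.05 there were 3, H2-Aa, H2-DMa and Cd74, and DESeq2 called 1, Cd74 (-0.37, adjusted p = 0.0419). Without a filter on low counts edgeR called H2-DMa (-0.48, adjusted p = 0.0283) and Cd74 (-0.42, adjusted p = 7.91e-04). With the replicate number as a block it called H2-DMa (adjusted p = 0.0280). With single libraries left out it called 0 to 2 members, H2-DMa without replicate 2 of IFNγ + LPS, Cd74 without replicate 1 of M0 with DGAT1i, and both when replicate 3 of the stimulated DGAT1i libraries was dropped. With library size alone 1229 genes were called higher and 882 lower, against 1019 and 1152 with TMM scaling. The response in IFNγ + LPS minus that in M0 was -0.44 for H2-DMa (SE 0.17, adjusted p = 0.0519), -0.46 for H2-Aa (SE 0.21, adjusted p = 0.120) and -0.38 for Cd74 (SE 0.16, adjusted p = 0.108). It was -0.27 for H2-DMb1, -0.07 for H2-Eb1, 0.01 for H2-Ab1 and 0.02 for Ciita, with SE from 0.14 to 0.74. With the filter and all 12 libraries, the decreases in IFNγ + LPS were therefore not shown by edgeR to differ from the response in M0.

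The members did not keep their proportions when macrophages were stimulated. Ratios of counts within a library do not depend on its scaling. The ratio of Cd74 to H2-Ab1 was 6.88, 6.50 and 10.3 in the M0 libraries and 3.56, 3.61 and 3.32 in IFNγ + LPS, so that in resting macrophages the invariant chain had more reads per read of I-A β. On the log2 scale the difference was -1.14, a 2.21-fold decrease. The ratio of H2-DMa to H2-Ab1 was 2.06, 1.53 and 3.14 in M0 and 0.438, 0.415 and 0.461 in IFNγ + LPS, a 4.90-fold decrease.

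With DGAT1i in both arms the same decreases were 2.91-fold for Cd74 to H2-Ab1 and 6.76-fold for H2-DMa to H2-Ab1, and again no resting library overlapped a stimulated one. Between H2-Aa and H2-Ab1, the chains of one molecule, the ratio ran from 0.753 to 0.845 in IFNγ + LPS and from 0.717 to 0.797 with DGAT1i, and spread from 0.727 to 1.91 in M0. In M0 with DGAT1i it ran from 1.24 to 1.90, above all stimulated libraries with DGAT1i, which makes a 1.94-fold decrease. H2-Eb1 to H2-Ab1 ran from 0.537 to 0.565 in IFNγ + LPS and, lower in each library, from 0.493 to 0.520 with DGAT1i, and it spread from 0.303 to 0.864 in M0. In a two-sided exact permutation test 3 libraries against 3 can give no p below 0.1. Of the 16 tests of 4 ratios in 4 comparisons, those with no overlap had that p (adjusted p = 0.267 over the 16), and none could pass the threshold.

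A further 3 ratios were chosen after their values were seen and were not tested. H2-DMa to Cd74 was 0.123, 0.115 and 0.139 in IFNγ + LPS and 0.149, 0.156 and 0.155 with DGAT1i, with no overlap. Ciita to Cd74 was 0.109, 0.0996 and 0.112 in IFNγ + LPS and 0.127, 0.137 and 0.124 with DGAT1i, again with no overlap. H2-DMb1 to H2-DMa ran from 1.51 to 2.38 in M0, from 0.721 to 0.736 in IFNγ + LPS and from 0.686 to 0.819 with DGAT1i, so that the H2-DM β chain had more reads than the α chain in resting libraries and fewer in stimulated ones.

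**Figure D4:**
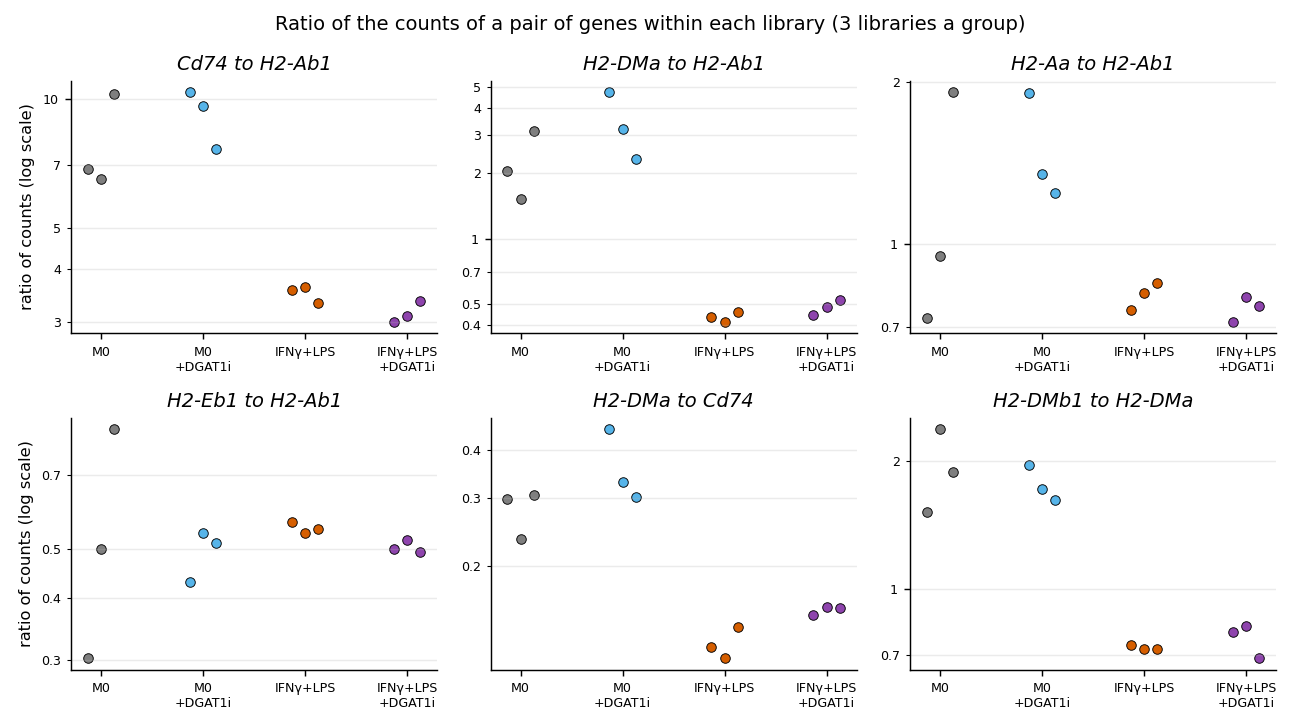
Ratio of the counts of a pair of members within each library (y axis, log scale; 3 points a group). Cd74 and H2-DMa fall against H2-Ab1 with stimulation, with no overlap between resting and stimulated libraries, while H2-Aa and H2-Eb1 spread widely against H2-Ab1 in M0 and lie close together in IFNγ + LPS.

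To compare members with each other, CPM was divided by the length of the merged exons. On this scale Cd74 was highest in every group, at 19.7 ± 0.941 CPM per kb (SD, n = 3) in M0 and 519.2 ± 16.1 in IFNγ + LPS. In M0 the next levels were those of H2-DMb1 (10.4 ± 1.33) and H2-DMa (2.67 ± 0.274). H2-Ab1 (1.71 ± 0.461), H2-Aa (1.26 ± 0.317) and H2-Eb1 (1.16 ± 0.357) did not differ beyond their spread, and H2-DMb2 (0.240 ± 0.0872) and Ciita (0.0296 ± 0.0159) came last. Divided by the longest coding transcript instead, H2-Eb1 (1.35 ± 0.416) lay below H2-Ab1 (3.63 ± 0.977) and H2-Aa (4.25 ± 1.07) in M0.

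In IFNγ + LPS the β chains of I-A and I-E stood above H2-DM. H2-Ab1 was at 97.2 ± 5.54 CPM per kb and H2-Eb1 at 70.6 ± 5.16. H2-Aa (52.8 ± 4.76) and H2-DMb1 (47.4 ± 5.12) did not differ beyond their spread, and H2-DMa (31.8 ± 3.44), Ciita (9.78 ± 0.819) and H2-DMb2 (1.15 ± 0.294) followed. With DGAT1i the first 3 places were the same, with Cd74 at 426.1 ± 51.4, H2-Ab1 at 88.3 ± 9.72 and H2-Eb1 at 58.7 ± 5.21 CPM per kb. The place of H2-Aa depends on the length used, since its merged exons (3798 bases) are over 3 times its longest coding transcript (1128 bases), and by that length it ranked 3 in both stimulated groups.

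The other class II genes had few or no reads. H2-Oa, a chain of H2-DO, which is known to restrain H2-DM, had 0 reads in all 6 resting libraries, 11, 11 and 12 in IFNγ + LPS and 10, 8 and 13 with DGAT1i. With a floor of 3 reads over the group it was at least 15.6-fold higher in IFNγ + LPS than in M0 and at least 16.4-fold higher with DGAT1i. The 95% counting intervals of these ratios, which also cover the error of the stimulated reads, begin below these bounds, at 12.6 with DGAT1i and lower without. H2-Oa too passed the filter through the stimulated groups alone. H2-Ob, its partner chain, had 5 reads in M0 and 8 in IFNγ + LPS, a ratio of 2.21 whose interval (0.637 to 8.57) includes 1. H2-Eb2 had 2 reads, both in 1 library of IFNγ + LPS.

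The path from IFNγ to Ciita was described by a list of 10 genes, all tested. With IFNγ + LPS 9 were higher and 1, the receptor chain Ifngr1, was lower, against 37.1% and 36.2% of all genes tested. The median log2 fold change was 1.14. Socs1, one of those higher, passed the filter through the stimulated libraries alone and so had to differ. Irf1, a transcription factor that acts on the Ciita promoter, rose by 5.56 on the log2 scale (SE 0.07), from 42.2 ± 3.03 to 1986 ± 7.71 CPM (SD, n = 3). The kinase Jak1 rose by 1.09 (SE 0.05). DGAT1i in IFNγ + LPS lowered 3 of the 10, among them Ifngr2 and Jak2, against 16.3% of all genes tested. It lowered 2 to 3 with single libraries left out, and the median over the list was -0.04. Irf1 differed by -0.05 (SE 0.05, adjusted p = 0.542) and Jak1 by -0.10 (SE 0.05, adjusted p = 0.119).

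In M0, DGAT1i lowered 3 of the 10 genes of this path, Ifngr1, Irf1 and Usf1, against 13.4% of all genes tested. The median was -0.08. Without replicate 1 of M0 only 1 was called and the median was -0.03, without replicate 3 of M0 with DGAT1i the median was -0.02, and DESeq2 called 2. The call of Irf1 held under every alternative tried. Irf1 fell by 0.47 on the log2 scale (SE 0.08, adjusted p = 1.40e-06), from 42.2 ± 3.03 to 30.4 ± 1.85 CPM, in libraries where Ciita had at most 4 reads.

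The complex that binds the X and Y boxes and its cofactors were described by 10 genes, all tested. With IFNγ + LPS 6 were higher and 1 was lower, against 37.1% and 36.2% of all genes tested, with a median of 0.30. With library size alone 3 were higher, 5 were lower and the median was -0.17. Kat2b, a histone acetyltransferase, rose by 1.24 (SE 0.07) and Ep300, another, by 0.48 (SE 0.08), though with library size alone Ep300 was no longer called (0.01, adjusted p = 0.858). Nfya, a chain of the Y box factor NF-Y, fell by 0.30 (SE 0.06). In IFNγ + LPS DGAT1i lowered 16.3% of all genes tested and, of these 10, Kat2b alone, by 0.33 (SE 0.07, adjusted p = 7.51e-05). In M0 it lowered 3, Nfyb, Nfyc and Kat2b, against 13.4% of all genes tested. Kat2b fell there by 0.36 (SE 0.08, adjusted p = 1.51e-04). DESeq2 called Kat2b alone, 2 were called lower without replicate 1 or 2 of M0 or replicate 2 or 3 of M0 with DGAT1i, and the call of Kat2b held under every alternative tried. The median of the list was 0.00 with DGAT1i in IFNγ + LPS and 0.09 in M0, where its sign is opposite to that of the 3 genes called.

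Proteases and helpers of antigen processing were described by 12 genes, all tested. IFNγ + LPS raised 6 and lowered 5 of them, against 37.1% and 36.2% of all genes tested. The median was 0.40 and became -0.07 with library size alone. Of those raised, Cst7 passed the filter through the stimulated libraries alone. Cathepsin S (Ctss), which trims the invariant chain, rose by 0.70 (SE 0.06), from 2020 ± 145.4 to 3287 ± 75.0 CPM. Cathepsins D (Ctsd) and B (Ctsb) fell by 0.90 (SE 0.06) and 0.15 (SE 0.05), the latter a call that was lost without any 1 of 3 libraries (adjusted p up to 0.102).

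DGAT1i raised 8 of these 12 genes in M0 and lowered 1, Cst3, against 11.0% and 13.4% of all genes tested. The median was 0.18, and with library size alone 5 were higher. Without replicate 2 of M0 5 were higher and 0 lower, and without replicate 2 of M0 with DGAT1i 6 were higher and 0 lower. The call of Cst3 was also lost without replicate 1 of M0, without replicate 3 of M0 with DGAT1i and without a filter on low counts. Ctss was 0.19 higher (SE 0.05, adjusted p = 0.00685), Ctsb 0.18 (SE 0.05, adjusted p = 0.00715) and Ctsd 0.20 (SE 0.06, adjusted p = 0.00484). With library size alone Ctss (adjusted p = 0.0628) and Ctsb (0.0652) were not called, and without replicate 2 of M0 Ctss (0.0994) and Ctsd (0.0551) were not. The call of Ctss was also lost without replicate 2 of M0 with DGAT1i (0.0701), and that of Ctsd without replicate 1 of that group (0.0861). In IFNγ + LPS the list was split, with 3 higher (Ctsl, Ctsd and Cd63) and 4 lower (Ctsz, Lgmn, Ifi30 and Cd82). Among all genes tested 13.5% were higher and 16.3% lower, and the median of the list was 0.00. The call of Ctsd there (0.15, SE 0.06, adjusted p = 0.0424) was lost without any 1 of 7 libraries, and Ctss differed by 0.04 (SE 0.05, adjusted p = 0.672).

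Turnover was described by 4 genes. IFNγ + LPS raised March1, a ubiquitin ligase of class II molecules, by 2.99 (SE 0.08), Sppl2a, the protease that clears the last fragment of the invariant chain, by 2.07 (SE 0.05), and Cd83, and lowered March8 by 0.42 (SE 0.07). The median was 1.71, and 37.1% of all genes tested were called higher and 36.2% lower. DGAT1i in IFNγ + LPS lowered Cd83, whose product protects class II molecules from March1, and raised Sppl2a by 0.14 (SE 0.05, adjusted p = 0.0333, up to 0.189 with single libraries left out), with a median of -0.04. March1 differed by 0.07 (SE 0.06, adjusted p = 0.414) and March8 by -0.15 (SE 0.08, adjusted p = 0.137). In M0 adjusted p ranged from 0.109 to 0.814 over the 4, with a median of 0.01.

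**Figure D5:**
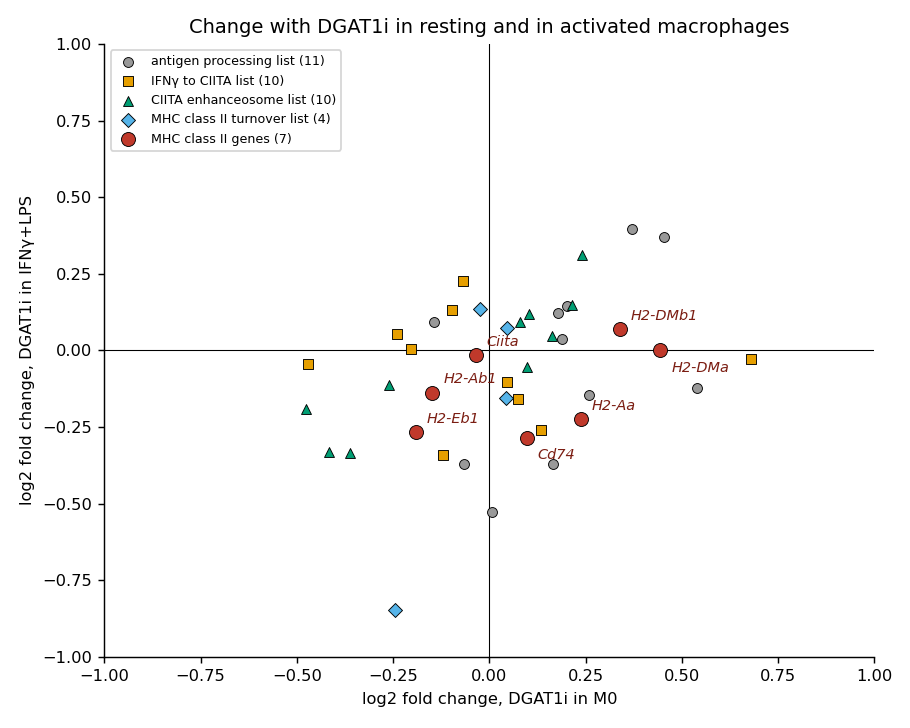
Log2 fold change with DGAT1i in M0 (x axis) and in IFNγ + LPS (y axis) of the 7 members and of the genes in the 4 lists around them, from comparisons that share no library (Cst7 lies outside the axes). H2-DMa and H2-DMb1 lie to the right with several antigen processing genes, and H2-Aa, H2-Eb1 and Cd74 lie below 0.

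The genes whose group means lay nearest to those of Cd74 and of Ciita were sought among 10165 genes. Nearness was the root mean square difference of the 4 group means of log2 CPM, each gene centred on its own mean. For Cd74 the nearest genes were Ccl22, Herc6, Samhd1, Cdc42ep2 and 1600014C10Rik, at 0.06 to 0.10. For Ciita they were Cfb, Cmpk2, Gbp7, Dnase1l3 and Cd86, at 0.12 to 0.17. The likeness describes 4 group means that stimulation separates, and no test was made of it.

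Markers of other cells that carry MHC class II were looked at beside the members. Of 10 dendritic cell markers, 5 were tested, and IFNγ + LPS raised 4 of these (Ccr7, Xcr1, Clec9a and Batf3) and lowered Itgax. Among all genes tested, 37.1% were called higher. Ccr7, Xcr1 and Clec9a passed the filter on low counts through the stimulated libraries alone, so that they had to differ. Batf3 also had resting reads, 28 in M0 and 22 in M0 with DGAT1i, against 55 and 62 in the stimulated groups. The summed level of the 10 markers ran from 97.9 to 117.3 CPM in M0, from 89.9 to 116.6 in IFNγ + LPS, from 87.9 to 111.3 in M0 with DGAT1i and from 71.0 to 78.6 in IFNγ + LPS with DGAT1i, most of it Itgax, which macrophages also express. DGAT1i in IFNγ + LPS lowered Itgax, Clec9a and Xcr1, the last of which passed the filter through IFNγ + LPS without DGAT1i alone, in the same libraries in which H2-Aa, H2-Eb1 and Cd74 were lower. Xcr1 went from 5.53 ± 0.685 to 0.871 ± 0.399 CPM and Clec9a from 8.17 ± 1.68 to 2.43 ± 0.407 CPM (SD, n = 3). The defining markers Zbtb46, with 5 to 10 reads a group, and Flt3, with at most 2, were near 0, and Cd209a and Siglech were at 0 in IFNγ + LPS with and without DGAT1i. The part of dendritic cells in the members' levels was not tested.

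Of 8 B cell markers 2 were tested, and their sum ran from 7.92 to 10.9 CPM in IFNγ + LPS and from 4.80 to 5.97 with DGAT1i, most of it Cd22, with Blk and Ebf1 at 0 in all 4 groups. T cell markers summed to at most 5.04 CPM in any library, with Cd3e, Cd3g and Trac at 0. Neutrophil markers rose with DGAT1i in IFNγ + LPS in all 4 of 8 that were tested (S100a8, S100a9, Ngp and Ltf), against 13.5% of all genes tested. The sum of the 8 ran from 15.2 to 25.5 CPM without DGAT1i and from 63.0 to 81.0 with it. Ly6g was at 0 in every group, and the part of such cells in the members' levels was not tested.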

How the data were processed

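The authors deposited raw counts of reads per gene for 12 libraries, without normalization. The submitters' processing notes name GRCm38 and DESeq2, while aligner, counter and its use of strand were not given in the sources used here. The deposited descriptions name a NEBNext library kit and the study's methods a stranded TruSeq kit. Of 47937 identifiers 47224 matched GENCODE release M21 without their version. No row or column of the table was left out.

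Genes were filtered with filterByExpr (minimum count 10), scaled by TMM and fitted with edgeR 4.0.16 (glmQLFit, robust, 1 mean per group, all 12 libraries) in R 4.3.3. SE is the log2 fold change divided by the root of F. Methods were tested on simulated data. Alternatives were RLE or library size alone, other filters, DESeq2 1.42.0, the 6 libraries compared, a replicate block and each library left out. Genes of each list named with values are the 3 with the highest mean level, every other class II gene, and the 5 nearest in pattern to Cd74 and Ciita, while the rest were named after their values were seen. Markers, Brd2 and Dexi were added beside results they touch. The members and lists were chosen with earlier results of these data known. Of the genes this rule names, 1 is not reported here.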

Additional observations from a re-analysis of the deposited data

Results flagged for a closer look

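None of the members met a rule for a closer look. In 19 genes of the lists or beside a member, the response to DGAT1i differed between IFNγ + LPS and M0 by edgeR's interaction test (adjusted p under 0.05). This test called 18.5% of all genes tested. It called 5 of 12 genes tested in antigen processing, 3 of 10 in the path from IFNγ to Ciita and 1 of 4 in turnover. Among markers it called 4 of 8 tested for macrophages, 1 of 2 for B cells and 4 of 4 for neutrophils, and 0 in the other lists. All values are the log2 response in IFNγ + LPS minus that in M0. In antigen processing the difference was -0.66 for Ctsh, -0.41 for Ctsz, -0.54 for Lgmn, -0.54 for Ifi30 and 0.24 for Cst3. In the path from IFNγ to Ciita it was -0.23 for Ifngr2, -0.39 for Jak2 and 0.43 for Irf1, and among turnover genes it was -0.60 for Cd83. For Brd2, which overlaps H2-DMa, it was -0.47. Among macrophage markers it was -0.43 for Fcgr1, -0.48 for Mertk, -0.68 for Itgam and -0.36 for Lyz2, and for the B cell marker Cd22 it was -1.36. Among neutrophil markers it was 2.38 for S100a8, 2.20 for S100a9, 3.10 for Ngp and 2.50 for Ltf. Groups of 3 libraries were not searched for outlying samples.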

How the results depend on the processing

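Both effects of IFNγ + LPS kept all 7 members higher under every alternative. Where the filter let H2-DMb2 in, it was called higher without DGAT1i, making 8, and not called with it. DGAT1i in IFNγ + LPS lowered 3 members, 3 to 4 under other settings and 1 to 4 with single libraries left out. DGAT1i in M0 raised 2 members, 0 with library size alone or DESeq2, and 0 to 2 with single libraries left out. For the difference between the responses, members called lower were 0, 2 without a filter, 1 with DESeq2, 1 with the replicate block, and 0 to 2 with single libraries left out. The cause of these shifts was not tested.

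Deviations of same-numbered libraries correlated at -0.02 to 0.07 over 18 pairs, 0 of them over 0.1, so the block was not taken as a pairing. As a hint from the data, 9 of 12 libraries correlated best with their own number. The block, which called H2-DMa in the difference (adjusted p = 0.0280), moved no other count of members. By the longest coding transcript (chosen after seeing the data) H2-Aa ranked 4 in M0 with and without DGAT1i and 3 in both stimulated groups, H2-Ab1 5 in both resting groups, H2-Eb1 4 in both stimulated groups and H2-DMb1 5 in IFNγ + LPS with DGAT1i. Resting levels of Ciita, H2-DMb2 and H2-Oa are limited by depth.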
